A study of Mus musculus with 16 samples.

Results

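The 10 genes described here make up the route by which a cell shows pieces of its own proteins to CD8 T cells, the MHC class I presentation pathway with its immunoproteasome. They were chosen by symbol: B2m, H2-K1, H2-D1, Tap1, Tap2, Tapbp, Psmb8, Psmb9, Psmb10 and Nlrc5. Each matched 1 row of the count table, so that 10 of 19574 genes are covered, and all 10 were among the 17122 genes that passed the filter on low counts. A count behind a member's value was never below 621 in a library, the lowest being one of Nlrc5.

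In this pathway the proteasome cuts cytosolic proteins into peptides, the TAP transporter carries the peptides into the endoplasmic reticulum, and tapasin helps to load them onto a class I heavy chain paired with beta-2 microglobulin. Interferon gamma is known to induce the whole set, including 3 catalytic subunits that replace their constitutive counterparts in newly assembled proteasomes and so form the immunoproteasome. In the gut, class I is carried by epithelial cells and by leukocytes alike, and CD8 T cells and NK cells read it.

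The libraries are bulk RNA-seq of whole tissue from male C57BL/6 mice in a model of inflammation-associated carcinogenesis. Every mouse was given the mutagen azoxymethane (AOM, 10 mg/kg) and 3 cycles of 3.5% dextran sulfate sodium (DSS), each of 5 days with 16 days of recovery, starting at 7 to 8 weeks of age. WT mice (3) were Foxp3 YFP-Cre animals, and KO mice (5) were Il23r fl/fl Foxp3 YFP-Cre animals, called Il23rΔTreg in the study. Each mouse gave 1 tumor and 1 adjacent normal piece of full thickness colon, so there were 3 WT and 5 KO libraries of each tissue. Both genotypes carry the Cre, which Foxp3 drives, so the receptor of interleukin-23 is lost only in FOXP3+ regulatory T (Treg) cells and every other cell of a KO mouse keeps Il23r. All WT mice share 1 cage label that no KO mouse carries, and genotype and cage cannot be told apart. For KO mouse2901, tumor and adjacent normal sample carry different cage labels.

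Total counts ran from 34418067 to 60836474 per library. Il23r had 0 to 14 reads in a library and was not tested, and since other cells keep the gene, it says nothing on the genotype labels. The adjacent normal pieces held muscle, and the tumors held less of it: the summed level of 5 smooth muscle markers was 4820 to 7621 CPM (read counts scaled to a common library total) in the adjacent normal libraries and 139 to 1149.8 CPM in the tumors. Epithelial markers were high in every library (8011 to 16137 CPM for 7 genes). The tumor library of WT mouse2988 stood apart, with 29.7% of its counts on the ribosomal RNA gene Rn18s (0.343% to 19.4% in the other 15) and the lowest TMM scaling factor, 0.67. The Rn18s share was 2.39% to 19.4% in WT adjacent normal colon and 6.62% to 29.7% in WT tumors. In KO mice it was 0.661% to 9.1% and 0.343% to 9.45%, so it ran higher in WT libraries, with overlap. TMM factors were 0.67 to 1.09 in WT tumors and 1.06 to 1.18 in KO tumors. The part of library composition in the differences between genotypes was not tested. Results that rest on the tumor library of mouse2988 are given with and without it.

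Levels below are CPM after TMM scaling, a correction for differences in library composition. A gene was called when edgeR's quasi-likelihood test over all 17122 genes gave a Benjamini-Hochberg adjusted p under 0.05 and the log2 fold change was beyond 1 in size, the thresholds of the study. Levels of different genes are not compared, since CPM is not corrected for transcript length.

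B2m, H2-K1 and H2-D1 encode the class I molecule itself. B2m is beta-2 microglobulin, the invariant light chain without which heavy chains do not reach the cell surface, and H2-K1 and H2-D1 are the classical heavy chains of this mouse strain. In the RefSeq annotation of GRCm38.p6, B2m lies on chromosome 2, Nlrc5 and Psmb10 on chromosome 8, and the other 7 members within 1.35 megabases of chromosome 17, the MHC.

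Promoters of the class I genes are shown because all 3 genes were called in the same comparisons. RefSeq's table of start sites (GRCm38.p6, windows of 300 bases) held 8 of the 10 members. The windows printed lie before the start site, 5′ to 3′ on the strand of the gene. Capitals mark matches, on either strand, to GGGANTNNCC, a pattern bound by NF-kappa B, and to GAANNGAAA. The latter is a short form of the interferon-stimulated response element at a fixed spacing. The first pattern reads almost the same on both strands, so its matches on the 2 strands of H2-K1 and H2-D1 overlap.
B2m (chr2:122147521-122147630, plus strand): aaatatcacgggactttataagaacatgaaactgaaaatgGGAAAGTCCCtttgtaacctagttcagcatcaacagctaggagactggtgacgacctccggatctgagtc
H2-K1 (chr17:34000389-34000498, minus strand): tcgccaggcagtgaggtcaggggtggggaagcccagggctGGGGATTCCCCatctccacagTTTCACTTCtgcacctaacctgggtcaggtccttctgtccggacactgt
H2-D1 (chr17:35262883-35262992, plus strand): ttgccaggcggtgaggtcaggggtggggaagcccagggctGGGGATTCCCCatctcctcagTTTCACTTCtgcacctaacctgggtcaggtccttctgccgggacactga
Of the 110 bases shown, 104 were the same in H2-K1 and H2-D1. The NF-kappa B pattern was found in the windows of B2m, H2-K1 and H2-D1, 3 of 8 members. Of 32851 mouse promoters of the same length, 4.16% held it. The interferon response pattern was found in 2 of 8, H2-K1 and H2-D1, against 7.52% of those promoters. The B2m window holds the related letters GAAACTGAAA, whose spacing is wider than that of the pattern searched, so they are not in capitals. The lack of a match in B2m thus does not mean that it lacks such an element. All of these are matches of letters, and no binding was measured.

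In the 3 WT mice (named as in the labels, mouse2988, mouse2989 and mouse2990, in that order throughout), B2m stood at 713, 454 and 288 CPM in adjacent normal colon and at 2119, 1332 and 1721 CPM in the tumors. In the KO mice (mouse2901, mouse2902, mouse2903, mouse2904 and mouse3883, in that order), it stood at 831, 303, 362, 373 and 593 CPM in adjacent normal colon and at 435, 418, 301, 469 and 732 CPM in the tumors. The WT tumors were above every other library, and the KO tumors lay within the span of the adjacent normal samples. B2m rose in WT tumors (log2 fold change 1.83, standard error (SE) 0.42, adjusted p = 0.0031 by edgeR) and was lower in KO than in WT tumors (−1.87, SE 0.35, adjusted p = 0.022). In the KO mice the tumor difference was −0.06 (95% interval −0.73 to 0.60).

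H2-K1 was at 1555, 989.9 and 620 CPM in the WT adjacent normal samples and at 4482, 2400.2 and 2739 CPM in the WT tumors. KO mice had 1459, 829, 751, 957 and 1215 CPM in adjacent normal colon and 934, 860.5, 685, 912 and 1407 CPM in the tumors. Again each WT tumor was above all 13 other libraries. H2-D1 had 1580.1, 1081 and 578 CPM in WT adjacent normal colon against 4691, 2443 and 2643 CPM in the tumors, and its 5 KO tumors held 1107, 1189.6, 932, 1179 and 1529 CPM. The 2 heavy chains rose by nearly the same amount in WT tumors (1.60, SE 0.36, for H2-K1 and 1.59, SE 0.36, for H2-D1, adjusted p = 0.0031 and 0.0033 by edgeR). Both were lower in KO than in WT tumors, H2-K1 by −1.74 (SE 0.31, adjusted p = 0.020) and H2-D1 by −1.46 (SE 0.31, adjusted p = 0.032). Reads of the pair are partly shared: 22.8% of the 31-base stretches of H2-K1 transcripts in GENCODE M21, and 26.7% of those of H2-D1, also occur in transcripts of other genes, most often in each other, so how the counter divided such reads is uncertain.

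**Figure D1:**
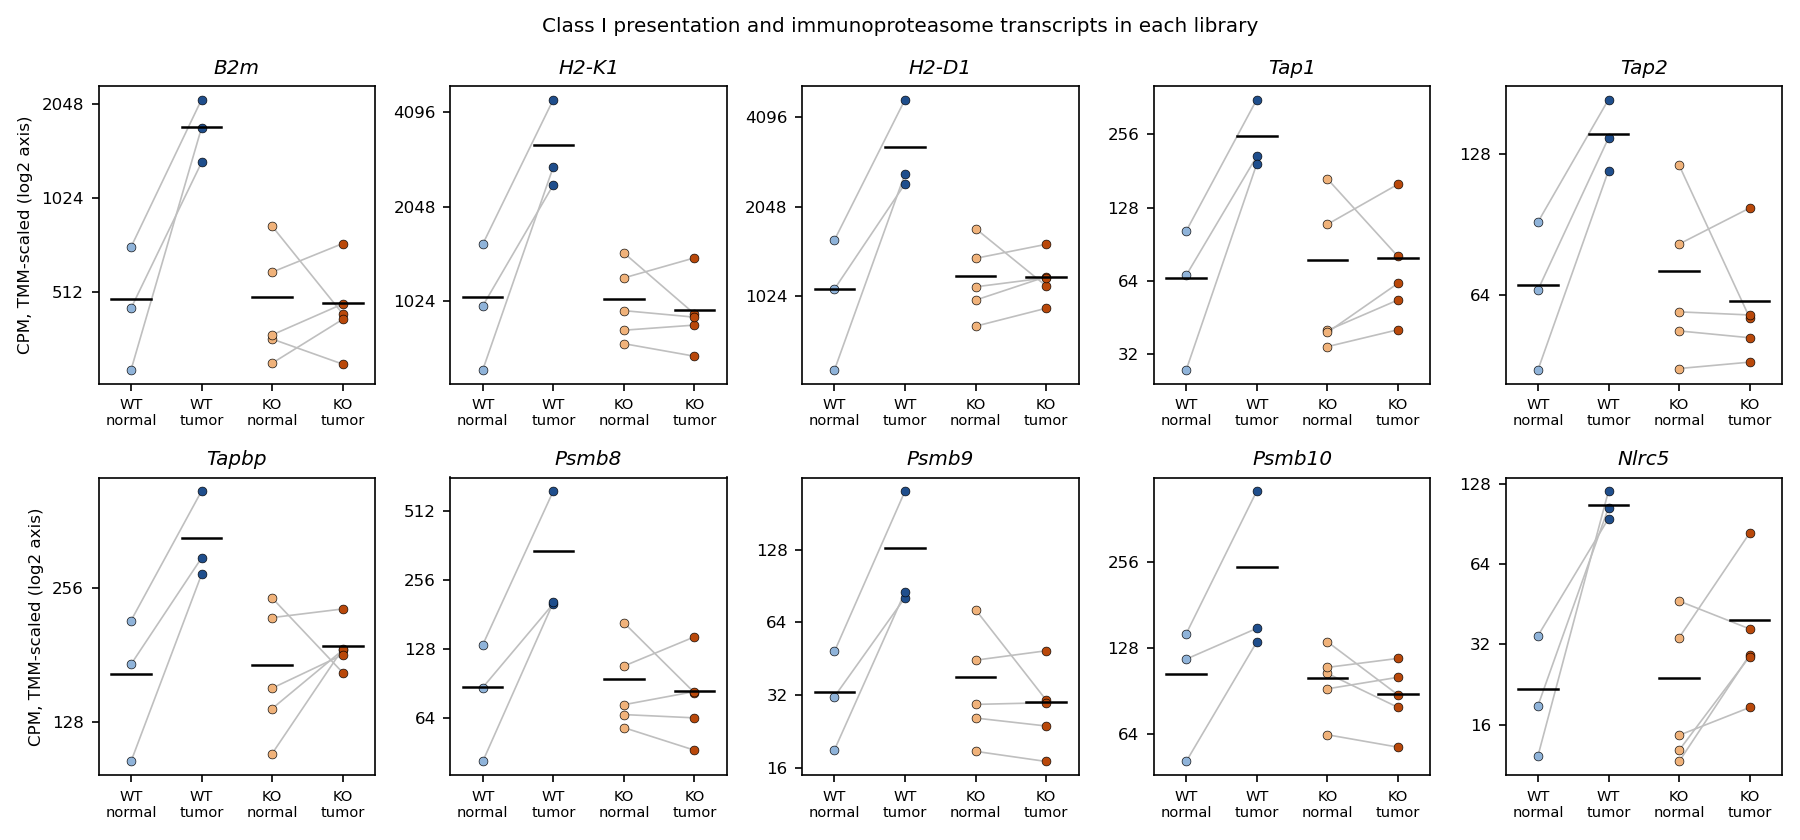
Level of each of the 10 genes in every library (CPM after TMM scaling, log2 axis), by group; grey lines join the 2 samples of a mouse and black bars are group means. For B2m the 3 WT tumors stand at 1332 to 2119 CPM and the 5 KO tumors at 301 to 732 CPM, and in all 10 panels every KO tumor lies below every WT tumor.

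Tap1 and Tap2 are the paired chains of the peptide transporter, and Tapbp is tapasin, the bridge between transporter and heavy chain. Tap1 stood at 102, 67.4 and 27.5 CPM in WT adjacent normal colon and rose to 356, 208 and 193 CPM in the tumors (log2 fold change 1.94, SE 0.66, adjusted p = 0.029 by edgeR). The KO tumors ranged from 40.3 CPM in mouse2903 to 159.6 CPM in mouse3883, all below the WT tumors, while KO adjacent normal samples ranged from 34.3 to 168 CPM. With this spread the difference between KO and WT tumors, −1.67 (SE 0.55), had an adjusted p of 0.12 and was not called. Tap2 rose less in WT tumors, from 44.2 to 91.7 CPM up to 118 to 168 CPM (1.08, SE 0.36, adjusted p = 0.029), and so did Tapbp, from 104 to 216 CPM up to 274 to 421 CPM (1.01, SE 0.30, adjusted p = 0.015). Tapbp thus passed the fold limit by a margin smaller than its error. For Tap2 the tumors of KO mice were at 46.0 to 98.3 CPM, a difference from WT tumors of −1.19 (SE 0.31) with an adjusted p of 0.063. With mouse as a replicate block the same difference was −1.23, with an adjusted p of 0.047, and would be called. Tapbp in KO tumors, at 165 to 229 CPM, differed from WT tumors by −0.81 (SE 0.26, adjusted p = 0.11).

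Tap1 is shown with its neighbor because the 2 genes share the stretch between their start sites. Tap1 and Psmb9 are read away from each other, and 225 bases lie between their annotated start sites. This is that stretch, read in the direction of Tap1, with the single CCAAT box in capitals.
Tap1 and Psmb9 (chr17:34187331-34187555, plus strand): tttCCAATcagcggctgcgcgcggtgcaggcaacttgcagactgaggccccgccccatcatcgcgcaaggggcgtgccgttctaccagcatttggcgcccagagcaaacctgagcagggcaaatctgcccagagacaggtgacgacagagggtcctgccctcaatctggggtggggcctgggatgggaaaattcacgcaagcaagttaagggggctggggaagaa
CCAAT, the letters bound by nuclear factor Y, was found in 6 of the 8 member promoters, on either strand. Tap1 and Psmb9 are both counted there for this same box. Of all mouse promoters of 300 bases, 37.4% held CCAAT. The patterns of the class I windows were not found in the stretch shown. Across the 16 libraries, deviations of Tap1 and Psmb9 from their group means were each compared with the mean deviation of the other members. Pearson's r was 0.968 for Tap1 and 0.970 for Psmb9, and 0.977 for H2-K1. The part of the shared stretch in these values was not tested.

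Psmb8, Psmb9 and Psmb10 are the inducible catalytic subunits LMP7, LMP2 and MECL-1. Psmb8 was at 133, 86.6 and 41.1 CPM in the WT adjacent normal samples and at 626, 201 and 204 CPM in the WT tumors. In the KO mice it stood at 166, 65.9, 57.8, 72.8 and 107 CPM in adjacent normal colon and at 82.2, 63.8, 46.1, 83.1 and 144 CPM in the tumors. The WT tumor of mouse2988 was far above the other pair, and even the lower pair of WT tumors exceeded all KO tumors. Psmb8 rose in WT tumors (1.98, SE 0.55, adjusted p = 0.011 by edgeR) and was lower in KO tumors than in WT tumors (−2.04, SE 0.47, adjusted p = 0.040). Without the tumor library of WT mouse2988 these were 1.26 (adjusted p = 0.079 by edgeR) and −1.27 (adjusted p = 0.24), and neither was called.

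Psmb9 had the largest difference between the tumors of the 2 genotypes among the 10 genes. That rank rests on the tumor library of WT mouse2988, without which B2m (−1.69) was ahead of Psmb9 (−1.47). Psmb9 was at 48.5, 31.5 and 18.9 CPM in WT adjacent normal colon, 225, 81.2 and 85.8 CPM in WT tumors, and 30.5, 23.8, 17.0, 29.7 and 48.8 CPM in KO tumors. Its log2 fold change was 1.98 (SE 0.53, adjusted p = 0.0089 by edgeR) in WT mice, −0.35 (95% interval −1.20 to 0.50) in KO mice and −2.12 (SE 0.45, adjusted p = 0.031) between the tumors. Without that library its rise was 1.38 (adjusted p = 0.057 by edgeR), and its difference between the tumors had an adjusted p of 0.16. Psmb10 showed the weakest case. Its WT adjacent normal samples, at 143, 117 and 51.5 CPM, overlapped the WT tumors, at 451, 149.8 and 134 CPM, and its rise (1.23, SE 0.45, adjusted p = 0.038) was 0.49 (adjusted p = 0.35) without the tumor library of mouse2988. KO tumors held 57.8 to 118 CPM of Psmb10 (−1.46 against WT tumors, SE 0.38, adjusted p = 0.061). Psmb8 carried the one match in the 8 member promoters to TTCNNNGAA, the gamma-activated sequence, which 8.3% of promoters hold.
Psmb8 (chr17:34198058-34198167, plus strand, match in capitals): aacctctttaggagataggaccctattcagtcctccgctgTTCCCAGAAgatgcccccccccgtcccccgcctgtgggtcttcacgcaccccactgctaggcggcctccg

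Nlrc5 is the transactivator of class I genes, a relative of the class II transactivator that acts at the promoters of many of the other members. It gave the largest rise in WT tumors of the 10: 34.5, 18.8 and 12.2 CPM in adjacent normal colon against 94.8, 104 and 120.2 CPM in the tumors (log2 fold change 2.29, SE 0.60, adjusted p = 0.0076 by edgeR). Unlike the other 9 members, Nlrc5 was lowest, not highest, in the WT tumor of mouse2988, and its rise without that library was 2.40 (SE 0.66, adjusted p = 0.015). In KO mice it was at 46.5, 11.6, 14.6, 12.8 and 33.9 CPM in adjacent normal colon and at 36.6, 29.2, 18.6, 28.8 and 83.7 CPM in the tumors. Nlrc5 was higher in the tumor in 4 of 5 KO mice, mouse2901 being the exception, and its KO difference of 0.72 (SE 0.45, adjusted p = 0.20) was the largest in KO mice among the members. Its difference between KO and WT tumors was −1.43 (SE 0.50, adjusted p = 0.14).

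Taking the comparison of WT tumors with WT adjacent normal colon as a whole, all 10 members were called higher, and each was higher in the tumor in 3 of 3 mice. The median log2 fold change was 1.72, against −0.01 over all genes tested. Over all genes, 12.1% were called higher and 12.9% lower. In 9 of the 10, Psmb10 being the exception, every tumor was above every adjacent normal sample, which was so for 23.4% of all genes. The size of the rise differed by mouse: the median fold over the members was 2.97 in mouse2988, 2.38 in mouse2989 and 4.55 in mouse2990. Of the WT mice, mouse2990 had the lowest adjacent normal level of all 10 members and mouse2988 the highest. Without the tumor library of mouse2988 the median was 1.30 and 4 members were called (B2m, H2-K1, H2-D1 and Nlrc5), and without mouse2990 the count was 5.

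Comparing tumors with adjacent normal colon in KO mice, edgeR called none of the 10, and none had an unadjusted p under 0.05, with DESeq2 and limma also calling 0. Over all genes, 9.53% were called higher and 16.1% lower in the same comparison, so the KO tumors did differ from adjacent normal colon in many other genes. Log2 fold changes of the members ran from −0.35 for Psmb9 to 0.72 for Nlrc5 with a median of −0.09, and the 95% intervals reached at most 1.67, for Nlrc5. For H2-K1 the interval was −0.70 to 0.47 and for H2-D1 −0.60 to 0.57, which leave out the fold changes that these genes had in WT mice. The mice did not move alike. In mouse2901 all 10 members were lower in the tumor (median fold 0.582), in mouse3883 all 10 were higher (1.18), and in mouse2902, mouse2903 and mouse2904 there were 6, 5 and 8 members higher. The KO animal mouse2901 also had the highest adjacent normal level of every member among the KO mice, together with the highest summed level of 5 pan-leukocyte markers (657 CPM, KO median 289) and of 5 B cell markers (239 CPM, KO median 40.3). The part of these cells in its class I level was not tested.

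Between the tumors of the 2 genotypes, 5 members were called lower in KO mice (B2m, H2-K1, H2-D1, Psmb8 and Psmb9) and none higher, where 1.58% of all genes were called lower and 0.146% higher. The median over the 10 was −1.57, against 0.01 over all genes. For each of the 10, all 5 KO tumors were below all 3 WT tumors, as they were for 7.09% of all genes. All 10 had unadjusted p under 0.05, from 4.6e-05 to 0.011, and adjusted p from 0.020 to 0.14. The 5 calls were close to the threshold. None was left without the tumor library of WT mouse2988, nor without any one of WT mouse2988 and mouse2989 or KO mouse2902, mouse2903 and mouse3883, and 2 were left without KO mouse2904 or without the tumor of WT mouse2989. The median difference stayed between −1.92 and −1.30 over the 11 fits that left out a mouse or a WT tumor library. In those same fits the number of all genes called lower ran from 271 down to 0.

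**Figure D2:**
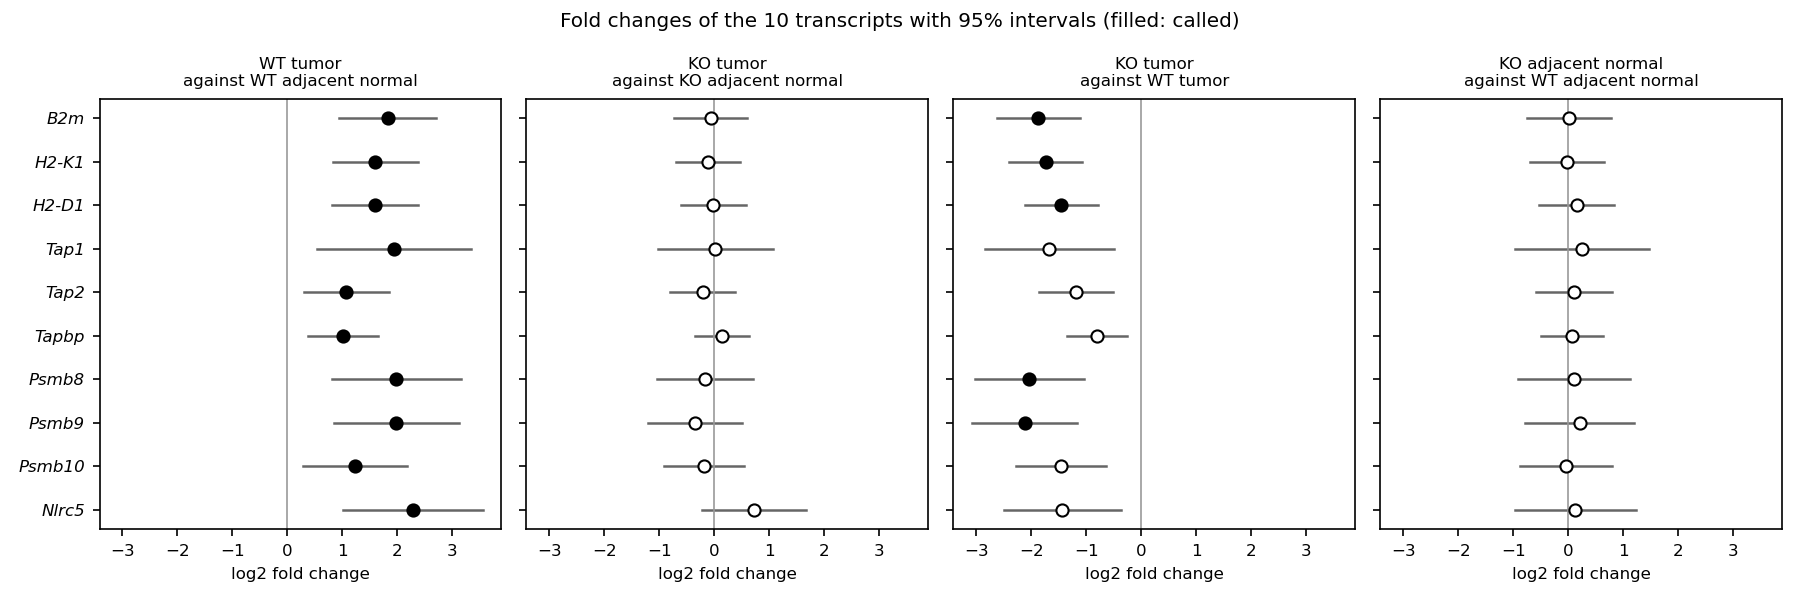
Log2 fold change of the 10 genes in 4 comparisons, with 95% intervals from the edgeR fit; filled points passed the call. All 10 points are filled and above 0 for WT tumors against WT adjacent normal colon, and 5 are filled and below 0 for KO against WT tumors.

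Adjacent normal colon of KO mice did not differ from that of WT mice in a way that could be detected: no member was called, none had an unadjusted p under 0.05 by edgeR, DESeq2 and limma called 0, and the log2 fold changes were −0.04 to 0.25. Only 0.00584% of all genes were called higher in this comparison (1 gene) and 0% lower. The intervals were wide, however, reaching from −0.97 to 1.46 for Tap1.

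The tumor effect was tested for a difference between genotypes in the same fit. Its log2 difference, KO minus WT, ran from −2.33 for Psmb9 to −0.87 for Tapbp, with a median of −1.67. All 10 had unadjusted p under 0.05 (0.0017 to 0.048), but none passed adjustment (adjusted p 0.16 to 0.36 by edgeR), as was so of every gene tested (0% higher, 0% lower). DESeq2 called 4 of the members lower (B2m, H2-K1, H2-D1 and Psmb9) and limma 0. At an unadjusted p under 0.05 there were 2370.0 genes in all.

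The members varied together within groups. In deviations from the group means over the 16 libraries, the 45 pairs of members had Pearson's r of 0.506 to 0.982 with a median of 0.904, a description over libraries that share their scaling. Psmb8 and Psmb9 were the closest pair and Psmb10 and Nlrc5 the most distant. Among KO mice the tumor of mouse3883 was highest for all 10 and that of mouse2903 lowest for 9, Tapbp being lowest in mouse2901. By the same measure the 8 genes outside the set that followed its mean most closely, of 13084 expressed genes, were Trafd1 (r = 0.954), a brake on innate immune signaling, Igtp (0.951), Ifi47 (0.950) and Gbp2 (0.937), which are interferon-induced GTPases, Cfb (0.950), complement factor B, H2-DMb1 (0.948), a chain of the class II peptide loader, Slfn2 (0.947), a schlafen protein, and Serpina3f (0.937), a serine protease inhibitor.

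Psmb8, Psmb9 and Psmb10 take the places of Psmb5, Psmb6 and Psmb7 in the proteasome, so the ratio within a library compares the inducible with the constitutive subunit and does not depend on library scaling. The log2 ratio of Psmb8 to Psmb5 was 0.45 ± 0.42 (SD, n = 3) in WT adjacent normal colon, 1.06 ± 0.24 in WT tumors, 0.41 ± 0.62 (n = 5) in KO adjacent normal colon and −0.44 ± 0.57 in KO tumors. Within a mouse it was higher in the tumor by 0.35, 0.82 and 0.67 in the WT mice and lower by a log2 change of −1.46, −0.69, −1.24, −0.22 and −0.64 in the KO mice. The direction was thus up in 3 of 3 WT mice and down in 5 of 5 KO mice. For Psmb9 to Psmb6 the directions were the same, with within-mouse changes of 0.23, 1.09 and 0.59 in WT mice and −1.72, −0.56, −0.89, −0.30 and −0.86 in KO mice. Psmb10 to Psmb7 was higher in the tumor in 2 of 3 WT mice and lower in 4 of 5 KO mice, with mean changes of 0.22 and −0.48.

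Setting KO against WT tumors, the log2 ratios differed by −1.50 for Psmb8 to Psmb5, −1.51 for Psmb9 to Psmb6 and −0.96 for Psmb10 to Psmb7. Exact permutation tests (two-sided) gave p = 0.018 for the first pair of ratios, the smallest that 3 against 5 mice allow, and 0.036 for the third. Adjusted over the 12 ratio tests these were 0.11, 0.11 and 0.14, and none passed. The tests between the tumors could not pass this adjustment on their own, even with every ratio at its smallest p. The adjusted values therefore decide nothing about the ratios. The tests within a genotype could not reach 0.05, since 3 pairs give no p under 0.25 and 5 pairs none under 0.0625. Of the constitutive subunits, Psmb5 rose in WT tumors (1.39, SE 0.32, adjusted p = 0.0034 by edgeR) and Psmb6 also (1.38, SE 0.36, adjusted p = 0.0069), while in KO tumors they had 0.68 (SE 0.24, adjusted p = 0.033) and 0.58 (SE 0.27, adjusted p = 0.095) and missed the call.

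**Figure D3:**
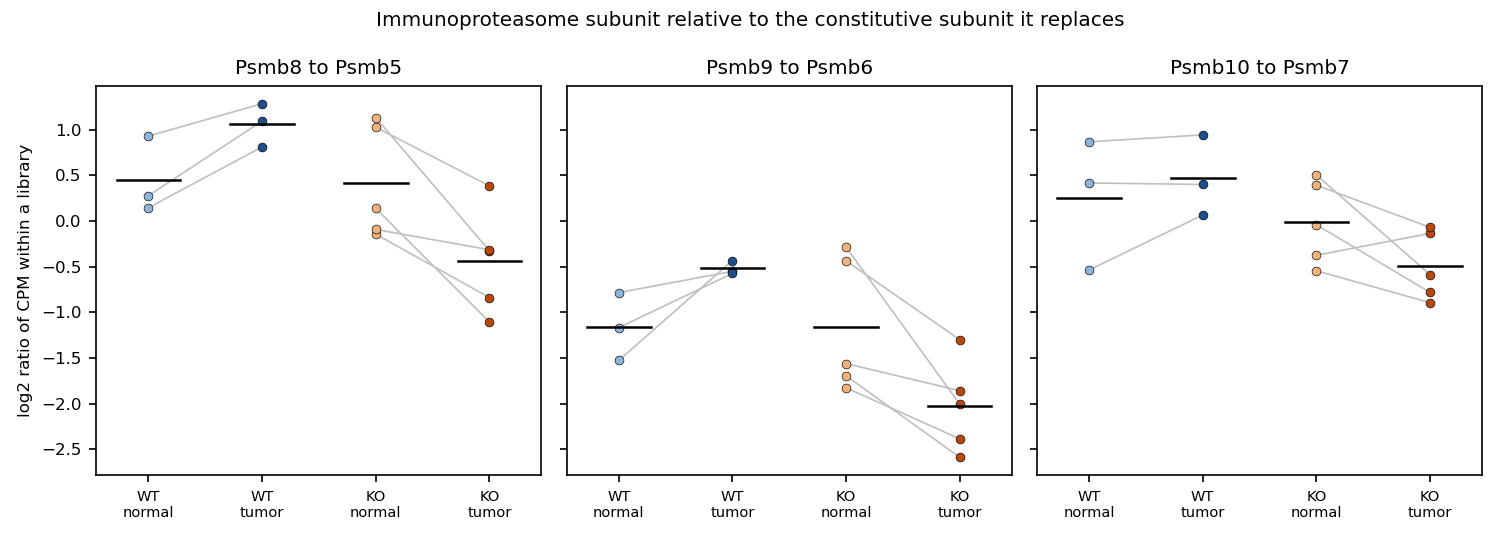
Log2 ratio of each immunoproteasome subunit to the constitutive subunit it replaces, per library; grey lines join the 2 samples of a mouse and black bars are group means. For Psmb8 to Psmb5 every WT line goes up (mean change 0.61) and every KO line goes down (mean change −0.85).

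The remaining genes of the pathway were taken from lists by function, drawn up with earlier results of these data known. Of 19 other class I heavy chains and class I-like genes, 6 rose in WT tumors (H2-Q4, H2-Q6, H2-Q7, H2-Q10, H2-T10 and H2-T22) and 3 fell (Fcgrt, H2-Q1 and H2-T3), with a median of 0.86. Of all genes, 12.1% were called higher and 12.9% lower in this comparison. H2-Q7, which encodes the nonclassical molecule Qa-2, went from 65.6 ± 42.0 to 651 ± 227 CPM (SD, n = 3; log2 fold change 3.31, SE 0.70, adjusted p = 0.0020 by edgeR), a larger rise than that of any of the 10 members. H2-Q6 and H2-Q4 rose by 2.96 (SE 0.63) and 2.01 (SE 0.43), and H2-Q1 fell (−2.02, SE 0.38, adjusted p = 0.00092). In KO tumors none of the 19 was called higher and 4 fell (Fcgrt, H2-Q1, H2-Q2 and H2-T3), against 9.53% of all genes higher and 16.1% lower. Between the tumors, 7 were lower in KO mice, among them H2-M3, which presents formylated peptides (−1.29, SE 0.21, adjusted p = 0.020), H2-T22 (−1.68, SE 0.29, adjusted p = 0.020), H2-Q2 (−1.21, SE 0.22, adjusted p = 0.020) and H2-T23, which encodes Qa-1 (−1.44, SE 0.26, adjusted p = 0.021). None of these 7 calls was left without the tumor library of WT mouse2988. With mouse as a replicate block, 1 of the 19 fell in WT tumors (Fcgrt and H2-T3 were not called), H2-M9 was called higher in KO tumors (1.62, adjusted p = 0.033) and 8 were lower between the tumors, H2-T10 in addition. H2-M9 was near the limit of detection, at means of 0.053 CPM in KO adjacent normal colon and 0.18 CPM in KO tumors. So was H2-T3, at 0.32 and 0 CPM in those groups, and at 1.16 and 0.091 CPM in WT adjacent normal colon and WT tumors. Without the tumor library of WT mouse2988, 2 fell in WT tumors, H2-T3 being lost. There 6 were still called higher by edgeR, but H2-Q10 was lost (1.215, adjusted p = 0.074) and H2-M2 gained (1.79, adjusted p = 0.024). H2-M9 was then called higher in KO tumors (1.78, adjusted p = 0.040). The Q genes resemble one another to varying degrees, and shared stretches were counted only for the 10 members. How reads were divided among the Q genes is therefore uncertain.

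Not every list of the pathway followed as a whole. Of 10 genes of peptide loading and trimming, none was called in any comparison. Calr and Pdia3, the 2 with the highest level and both chaperones of the loading complex, had log2 fold changes of 0.66 (SE 0.23, adjusted p = 0.033) and 0.26 (SE 0.16, adjusted p = 0.23) in WT tumors and of 0.01 and 0.03 between KO and WT tumors. The list's median was −0.03 in WT tumors, with 3 of 10 genes at an unadjusted p under 0.05. Among 11 other core proteasome subunits, 2 rose in WT tumors (Psmb3, 1.58, SE 0.40, adjusted p = 0.0067, and Psmb2, 1.12, SE 0.31, adjusted p = 0.010), and among 9 activators and assembly factors 5 rose (Pomp, Psme1, Psme2, Psmg3 and Psmg4). The share of all genes called higher in that comparison was 12.1%. Psme1 and Psme2, the subunits of the interferon-inducible PA28 cap, rose by 1.32 (SE 0.32) and 1.21 (SE 0.29). None of these 3 proteasome lists had a call in KO tumors by edgeR, nor did the calls of Psmb2, Psmb3, Psmb5, Psmb6 and the activators remain without the tumor library of WT mouse2988. Of 5 cytosolic peptidases tested, Lap3, leucine aminopeptidase, rose in both genotypes (1.66, SE 0.25, adjusted p = 0.00018 in WT tumors and 1.01, SE 0.19, adjusted p = 0.00042 in KO tumors, where it was 0.98 with mouse as a replicate block, under the fold limit), and Thop1 rose in WT tumors (1.19, SE 0.22, adjusted p = 0.00069; 0.94 without the tumor library of WT mouse2988, below the fold limit).

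The factors that work with Nlrc5 at class I promoters, the RFX, NF-Y and CREB families, were listed with the class II transactivator Ciita. None of the 9 was called in any comparison by edgeR without a block. With mouse as a replicate block Ciita alone was called, higher in WT tumors (1.18, SE 0.36, adjusted p = 0.026) and lower in KO than in WT tumors (−1.77, SE 0.44, adjusted p = 0.046). Ciita, named after its values were seen, stood at 22.6 ± 10.8 CPM in WT adjacent normal colon, 47.8 ± 7.6 CPM in WT tumors (SD, n = 3), 28.5 ± 19.4 CPM in KO adjacent normal colon and 15.4 ± 7.9 CPM in KO tumors (n = 5), and every KO tumor was below every WT tumor. Without the block its differences were 1.08 (SE 0.54, adjusted p = 0.12) in WT tumors and −1.64 (SE 0.47, adjusted p = 0.078) between the tumors. Creb1 and Nfya, the 2 highest, had 0.08 (SE 0.24) and 0.14 (SE 0.14) in WT tumors. Rfx5, a part of the RFX complex named after its values were seen, went from 21.1 ± 1.2 to 38.1 ± 4.1 CPM in WT mice (SD, n = 3) and from 21.6 ± 3.5 to 34.5 ± 3.7 CPM in KO mice (n = 5), below the fold limit in both (0.85, adjusted p = 0.00083, and 0.67, adjusted p = 0.00036).

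Of 16 interferon signaling genes 5 rose in WT tumors, among them Socs1 (3.03, SE 0.69, adjusted p = 0.0033), a feedback inhibitor of JAK kinases, Irf9 (1.02, SE 0.28, adjusted p = 0.0091), Irf7 (1.67, SE 0.53, adjusted p = 0.021) and Ifng itself. Ifng was close to the limit of detection, at 0.019 to 0.135 CPM in WT adjacent normal colon and 0.711 to 1.64 CPM in WT tumors (4.21, SE 1.56, adjusted p = 0.043), with 0.057 to 1.48 CPM in KO tumors. Without the tumor library of WT mouse2988, 2 of the 5 were still called, Socs1 among them, and Irf9, Irf7 and Ifng were not. In KO tumors none of the 16 was called, and none differed between the tumors by edgeR, where 8 had an unadjusted p under 0.05 and DESeq2 called 3 lower. Of 11 interferon-induced GTPases 10 rose in WT tumors, such as Tgtp1 (5.01, SE 1.10), Igtp (3.15, SE 0.70), Gbp4 (2.85, SE 0.63) and Irgm1 (2.12, SE 0.48), and 9 without the tumor library of WT mouse2988, Gbp2 being lost. In KO tumors 3 of these rose (Tgtp1, 2.49, SE 0.76, Gbp4, 1.35, SE 0.46, and Gbp6, 1.28, SE 0.48, with adjusted p of 0.014, 0.024 and 0.040), and all 11 had positive log2 fold changes there, with a median of 0.95. With mouse as a replicate block 5 were called there, Iigp1 and Ifi47 in addition. None of the 3 calls was left without KO mouse3883, whose tumor was highest for all 10 members.

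**Figure D4:**
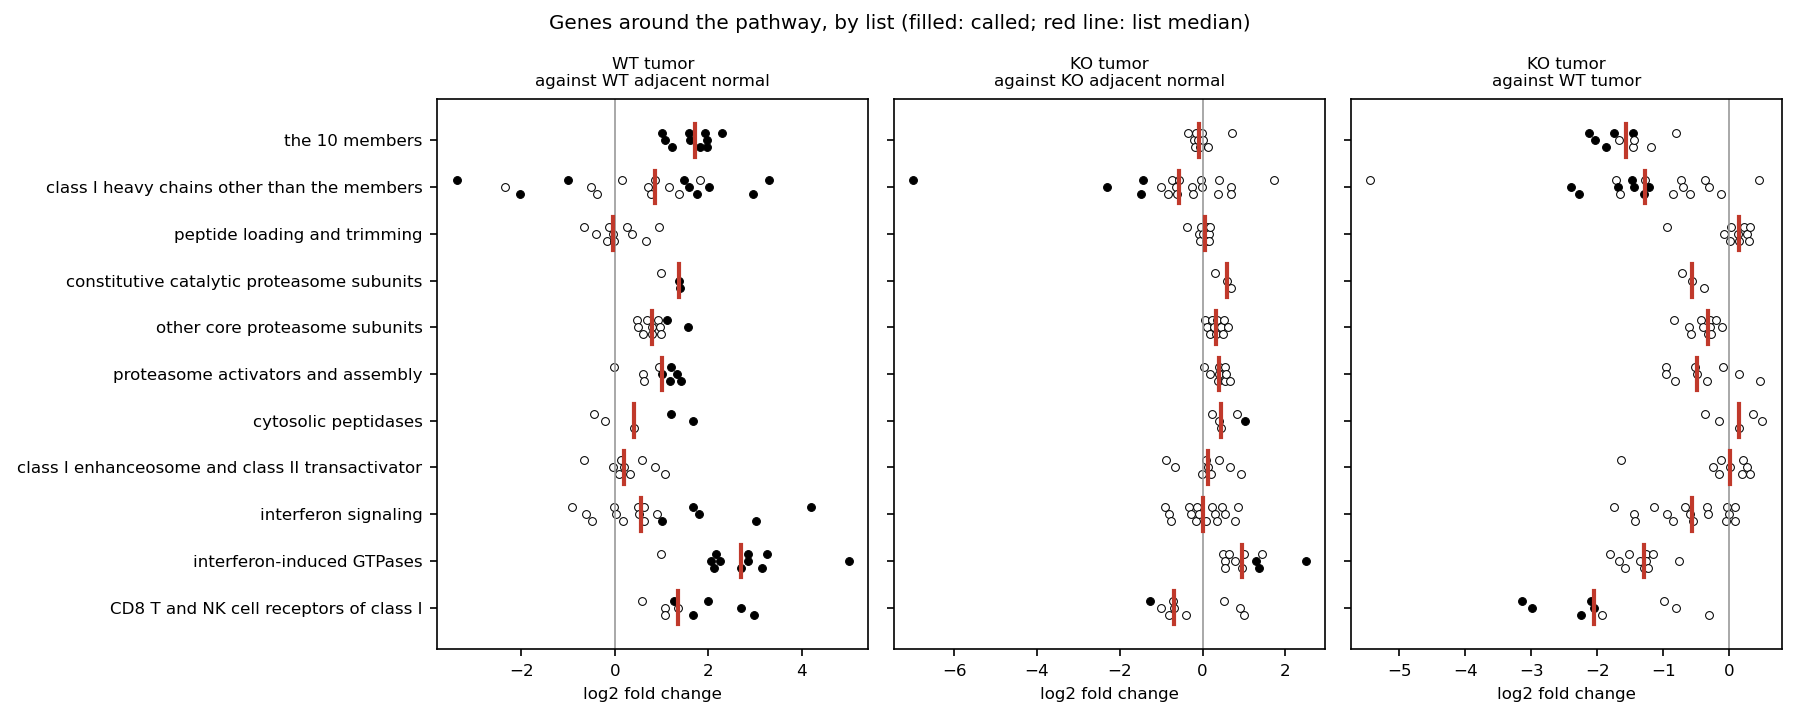
Log2 fold changes of the 10 members and of the genes of each list in 3 comparisons; filled points passed the call and red lines are list medians. In WT tumors the median is 1.72 for the members, 2.70 for the GTPases and −0.03 for peptide loading and trimming, and in KO tumors it is −0.09, 0.95 and 0.05.

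CD8 T and NK cells carry receptors that read class I. The list held 8 receptor genes in 9 rows of the table, and not all of them are known to read class I. In WT tumors 5 rows rose (Cd8a, Cd8b1, Klrc1 and both rows of Lilrb4a), and 5 were lower in KO than in WT tumors (Cd8a, Cd8b1, Klrb1c, Klrd1 and Klrk1). In KO tumors against KO adjacent normal colon, Klrb1c alone was called, lower by −1.26. With mouse as a replicate block it was −1.15 (adjusted p = 0.053 by edgeR) and not called. A row of Lilrb4a stood at 0.99 there and was called higher with the block (1.05, adjusted p = 0.016). Cd8a was at 2.51 ± 1.23 CPM in WT adjacent normal colon, 10.1 ± 2.2 CPM in WT tumors (SD, n = 3), 3.46 ± 1.83 CPM in KO adjacent normal colon and 2.13 ± 1.03 CPM in KO tumors (n = 5). Its log2 difference between KO and WT tumors was −2.24 (SE 0.43, adjusted p = 0.022 by edgeR), and that of Klrb1c, the NK1.1 antigen, −3.13 (SE 0.51, adjusted p = 0.020). None of these 5 calls between the tumors was left without the tumor library of WT mouse2988.

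Some leukocyte markers differed between the same groups as the members and others did not, and in bulk tissue fewer cells of a type cannot be told apart from less RNA per cell. The summed level of 5 pan-leukocyte markers was 193 to 318 CPM in WT adjacent normal colon, 457 to 566 CPM in WT tumors, 145 to 657 CPM in KO adjacent normal colon and 185 to 274 CPM in KO tumors. In WT tumors 3 of these 5 were called higher, and between the tumors none of the 5 was called, with a median of −1.11. Neutrophil markers differed in another way: 4 of 5 rose in WT tumors and also in KO tumors (median 2.94 in KO tumors), and none was called between the tumors (median 0.28). B cell markers had 0 of 5 called in WT tumors and 5 of 5 lower in KO tumors (median −5.07). Against KO adjacent normal colon, 3 of 6 macrophage, 1 of 4 T cell and 1 of 5 dendritic cell markers were also lower in KO tumors. No pan-leukocyte marker was called in that comparison, in which 16.1% of all genes were called lower. T cell markers had 3 of 4 higher in WT tumors and 4 of 4 lower in KO than in WT tumors (8.63 to 20.9 against 40.2 to 59.1 CPM summed), B cell markers 4 of 5 lower (1.54 to 9.32 against 17.4 to 82.3 CPM), macrophage markers 3 of 6 lower (138 to 278 against 486 to 620 CPM) and dendritic cell markers 1 of 5 lower. Without the tumor library of WT mouse2988, none of these marker calls between the tumors was left, and in WT tumors 2 of 5 pan-leukocyte, 2 of 4 T cell and 4 of 5 neutrophil markers were called higher. No marker of any list was at 0 in all libraries of a group. Epithelial markers had 0 of 7 called between the tumors (8169 to 9294 against 8011 to 16137 CPM). The part of leukocytes in the class I levels was not tested.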

How the data were processed

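The authors extracted RNA from tumor and adjacent normal colon, trimmed paired reads with fastp 0.20.0 and quantified them with Salmon 1.4.0 on a decoy-aware GENCODE transcriptome, and deposited estimated counts, given as integers, for all 16 libraries. The other 8 deposited files were not used: they hold DESeq2-normalized values, subsets in which 64 columns carry names that match no sample label, and the authors' own fold changes and p-values, which were not used for any value. A search of the count table found 0 rows without a gene name and 0 pairs of libraries of a group with identical values.

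Genes were kept with edgeR's filterByExpr (minimum count 10, 17122 of 19574) and fitted with edgeR 4.0.16 (quasi-likelihood, TMM, R 4.3.3) on the deposited counts, with the 4 groups in 1 fit and no block, and Benjamini-Hochberg adjustment over all genes tested. Standard errors are the log2 fold change over the square root of F. Contrasts were tumor against adjacent normal within each genotype, KO against WT within each tissue, and their interaction; those with a shared group share its libraries. Ratio tests were two-sided exact permutations. Likeness used log2 CPM with a prior count of 2. Named genes were all 10 members, up to 4 called genes with the smallest p from each list (the 2 of highest level where none was called), and the 8 genes of highest likeness whose mean log2 CPM reached 1. The fit functions were tested on simulated data.

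Members, lists and tests were chosen with earlier results of these data known. Tumor and adjacent normal samples with the same number come from the same mouse, as the labels state. Correlations of same-mouse deviations from the group means ran from −0.27 to 0.33. As an alternative, mouse was used as a replicate block. For tumor against adjacent normal and the interaction, each mouse was a term of the edgeR fit. For KO against WT, limma's within-mouse correlation of 0.127 was used. Alternatives were DESeq2 1.42.0, limma 3.58.1, other scaling and filters, the groups compared alone, no Rn18s row, and leaving out each mouse or WT tumor library. Promoters and start sites are RefSeq's on GRCm38.p6; coordinates of the files' own annotation were not used. Gene ID versions of the count table are later than those of GENCODE M21, whose transcripts served only to count shared stretches. 2 genes named in the lists were not in the table used here. 1 gene that the naming rule would give is not reported here.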

Additional observations from a re-analysis of the deposited data

Results flagged for a closer look

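Of 48 checks of groups of 5 KO samples for a single value far from the rest (members, subunit ratios and marker sums), 0 stood out, where chance alone gives about 1 in 20. The ratios of Psmb8 to Psmb5 and of Psmb9 to Psmb6 were set apart because every WT mouse moved one way between adjacent normal colon and tumor and every KO mouse the other. The log2 tumor change of the ratio differed between genotypes, KO minus WT, by −1.46 for Psmb8 to Psmb5 and by −1.51 for Psmb9 to Psmb6. These ratios were singled out for that complete separation, which by itself fixes the p of a permutation test, so none is given and the differences stand as a description. Leaving out each mouse in turn gave differences of −1.28 to −1.71 for these ratios. For Psmb10 to Psmb7, where the mice did not separate, the difference was −0.70. Since the same 3 WT mice share a cage label, cage and genotype cannot be told apart here either.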

How the results depend on the processing

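All 10 members kept a positive log2 fold change in WT tumors and a negative one between KO and WT tumors under each of the 21 settings. The median over the members ran from 1.30 to 1.88 in WT tumors and from −1.92 to −1.25 between KO and WT tumors. Counts of calls were less stable. The 10 calls in WT tumors were 9 with limma and 8 with the groups compared alone, and ran from 4 to 10 over the fits that left out a mouse or a WT tumor library. The 5 calls between the tumors were 8 with DESeq2 and 1 with scaling by library size alone, which shifted the median of all genes by 0.28 (H2-K1 remained, at an all-gene count of 27 lower instead of 271), and ran from 0 to 6 over the fits that left out a mouse or library, 2 without the tumor library of WT mouse2989, a setting chosen after seeing the data. Over all genes, those called lower between the tumors numbered 636 with DESeq2 and 410.0 with the groups compared alone. In the test of the difference in tumor effect DESeq2 called 4 members. With mouse as a replicate block the count between the tumors was 6, by the gain of Tap2, and no other call of a member changed. Leaving out 1 WT tumor library leaves 2, and no test here separates cage from genotype. Il23r, at 0 to 14 reads, Ifng, H2-M9 and H2-T3 are limited by depth.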
